A study of Homo sapiens with 6 samples.

Results

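The DEAD and DEAH box RNA helicases were followed in NB4 cells with and without arsenic trioxide. The members are the 52 of 23858 listed genes whose symbol is DDX or DHX with a number and at most 1 further letter, without the Y-linked copy of DDX3X. NB4 is an established human line from acute promyelocytic leukaemia in which PML is fused to RARA, and arsenic trioxide, used to treat this leukaemia, leads to breakdown of the fusion protein. The 2 groups are control cells and cells given arsenic trioxide for 6 h, with 3 libraries each. Both come from 1 line grown in RPMI medium with serum, and the dose is not stated. Whether a library stands for its own culture is not stated, so p-values measure the spread between these libraries, which may be technical.

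These enzymes use ATP to pry apart short RNA helices or to strip proteins from RNA, and they are named after a run of amino acids, Asp-Glu-Ala-Asp or Asp-Glu-Ala-His, in the ATP-binding core. DEAD box members open helices locally, while DEAH box members tend to move along a strand and are often switched on by partner proteins with a glycine-rich G-patch. In the nucleolus they release small nucleolar RNAs from precursor ribosomal RNA and reshape it, in the spliceosome each drives a set rearrangement of the small nuclear RNAs, and at the nuclear pore they help hand messenger RNA to the cytoplasm. Others act in translation, mRNA decay, mitochondrial ribosome assembly or the sensing of viral RNA.

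Levels are given as RPKM, which corrects read numbers for the length of a gene's exons and for sequencing depth, so that genes can be compared and a lower value is a smaller share of the library. Fewer cells with a transcript and less of it per cell cannot be told apart in bulk RNA. Library totals recovered from the values were 19361333 to 22609019 reads, and member genes held between 21 and 28944 reads in a library. Differences were tested with limma-trend on log2 of RPKM + 1 over the 16803 genes that averaged 1 RPKM or more, and a gene was called at a Benjamini-Hochberg adjusted p under 0.05. Fold changes on this scale understate the change of genes near 1 RPKM. Of these genes 25.4% were called, 12.0% higher and 13.4% lower after arsenic trioxide, and their median log2 fold change was -0.0033. The markers of promyelocytic cells came to a summed 1059.8 to 1438 RPKM in control and 720.2 to 1051 RPKM in treated libraries, with 8 of 9 listed. Of these 8, all tested, 1 was called lower and 7 were not called. MPO held the largest part of the sum (means of 940.0 RPKM in control and 677 RPKM after treatment) and was not called. Control replicate 1 and arsenic trioxide replicate 3 stood apart from the other 4 libraries on the second principal component (21.3 and 23.0 against -14.8 to -6.9, 15.2% of the variance).

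Among the helicases 50 members passed the filter, and 22 fell while 3 rose after arsenic trioxide. That is 25 of 50 called, beside 25.4% of all genes tested. Members that fell made up 44.0% of those tested, against 13.4% of all genes, and members that rose 6.0%, against 12.0%. Without overlapping genes that second order turned, with 4 of 20 members higher beside 796 of 5394 genes. The median log2 fold change of the tested members was -0.21. All treated libraries lay below all controls in 26 members and above them in 10, while groups were apart in 44.6% of all genes tested. Among the nucleolar members 11 of 16 were lower, with a median of -0.44 and 0 higher (0 also at an unadjusted p under 0.05 and with limma-voom). Of the 13 splicing and export members 6 fell, with a median of -0.21. Without overlapping genes 5 of 6 nucleolar and 4 of 4 splicing and export members fell. The difference between these roles is a description of their counts and medians and was not tested. Without control replicate 1 and arsenic trioxide replicate 3, 16 members fell and 2 rose, and 10 nucleolar members but 3 splicing and export members were lower. Without control replicate 2, arsenic trioxide replicate 1 or arsenic trioxide replicate 2, 1 member rose.

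**Figure D1:**
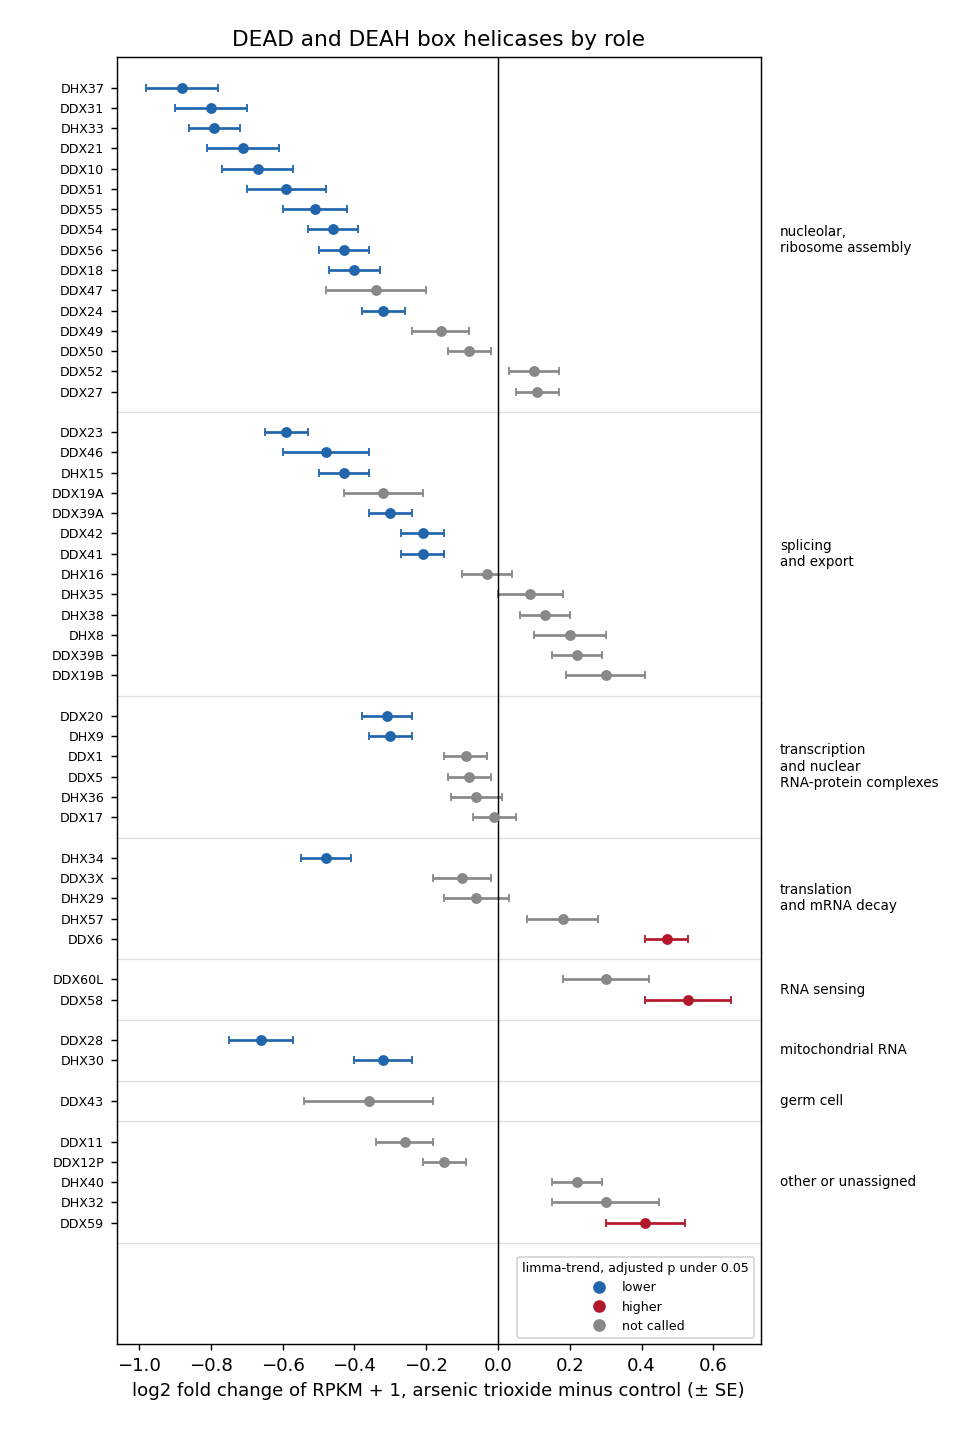
Log2 fold change of RPKM + 1 (arsenic trioxide minus control, bars ± SE, 3 libraries per group) for the 50 tested helicases, grouped by role and coloured by call. The nucleolar group reaches -0.88 and holds no red point, while DDX6, DDX58 and DDX59 are the 3 members called higher.

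Of the nucleolar helicases, DHX37 had the largest fall of all members. DHX37, on chromosome 12 (124946825 to 124989122, GRCh38), acts in the assembly of the small ribosomal subunit, where it takes a small nucleolar RNA off the precursor. Its level was 24.2, 19.5 and 20.8 RPKM in the control libraries and 12.0, 10.3 and 11.4 RPKM in the treated ones. Every treated library lay below every control library, at 52.1% of the control mean (log2 fold change -0.88 ± 0.10 SE, with an adjusted p from limma-trend of 0.00175). DDX31, a nucleolar protein of ribosomal RNA processing on chromosome 9 (132592997 to 132670401), was at 14.9, 11.7 and 13.2 RPKM in control and at 6.88, 7.57 and 7.02 RPKM after arsenic trioxide. The groups did not overlap, and the treated libraries sat within a narrow band at 53.9% of the control mean (-0.80 ± 0.10 SE, adjusted p = 0.00268).

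DHX33, which binds ribosomal DNA and takes part in its transcription (chromosome 17, 5440912 to 5469060), had the smallest p-value of the family. It went from 20.5, 18.1 and 18.9 RPKM to 10.5, 10.3 and 11.2 RPKM. The 3 treated values were close together and all near 55.6% of the control mean (limma-trend adjusted p = 0.000934, log2 fold change -0.79 ± 0.07 SE). DDX21, which links transcription by RNA polymerase I to processing of its product, was the most abundant helicase per length in control cells (chromosome 10, 68956128 to 68985073). It fell from 275, 243 and 255 RPKM to 167, 169.9 and 135 RPKM (-0.71 ± 0.10 SE, adjusted p = 0.00399). Arsenic trioxide replicate 3 was the lowest of the treated libraries, and no treated library reached the lowest control. DDX21 alone made up 41.9% to 42.7% of the summed RPKM of the nucleolar members in control and 34.2% to 39.0% after treatment. That sum was 643, 580.3 and 601 RPKM in control libraries and 438, 436 and 394 RPKM in treated ones.

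DDX10, the relative of a yeast helicase that frees a small nucleolar RNA from the small-subunit precursor, fell from 21.4, 19.1 and 19.8 RPKM to 12.5, 13.6 and 10.8 RPKM (log2 fold change -0.67 ± 0.10 SE, with an adjusted p from limma-trend of 0.00397). DDX54, a factor of large-subunit assembly, had very even controls at 32.7, 33.7 and 33.1 RPKM and lower treated libraries at 25.7, 23.5 and 22.4 RPKM (-0.46 ± 0.07 SE, adjusted p = 0.0039). In both genes the groups were apart. The other nucleolar members that fell were DDX51 (-0.59), DDX55 (-0.51), DDX56 (-0.43), DDX18 (-0.40) and DDX24 (-0.32), most of which are known for large-subunit assembly. The call of DDX24 was lost without control replicate 3 (adjusted p = 0.0524), and the other 10 kept theirs without any single library. Control and treated libraries were apart, with treatment lower, in 12 of the 16 nucleolar members and in 22.6% of all tested genes.

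The 5 nucleolar members without a call were DDX47, DDX49, DDX50, DDX52 and DDX27. DDX47, a small-subunit factor, was low at 1.65, 1.27 and 1.72 RPKM in control and 0.97, 1.12 and 0.948 RPKM after treatment, apart in all libraries (log2 fold change -0.34, limma-trend adjusted p = 0.116). Another gene's exons, those of APOLD1, cover 36.5% of its exon bases, which limits what its reads can say, and limma-voom on the recovered reads called it lower (-0.61, adjusted p = 0.0271). DDX49 (-0.16, 95% confidence interval -0.33 to 0.02) and DDX50 (-0.08, -0.23 to 0.07) overlapped between groups. DDX52 (0.10, -0.07 to 0.27) and DDX27 (0.11, -0.04 to 0.26) lay on the other side of 0. All treated libraries of DDX52 (9.60 to 10.4 RPKM) were above all controls (9.15 to 9.54 RPKM), while DDX27 overlapped. The intervals of these 4 do not reach the fold changes of DHX37, DDX31, DHX33 or DDX21.

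Several of the nucleolar genes that fell lie on the long arm of chromosome 12. DDX54 (113157174 to 113185479), DDX55 (123602077 to 123620941), DHX37 and DDX51 (132136594 to 132144335) follow each other along it, and all of them fell. The chromosome holds 8 members, of which 5 fell and 0 rose, beside 44.0% of tested members and 13.4% of all genes tested lower. The fifth is the splicing helicase DDX23, and the remaining members there are DDX47, DDX11 and DDX12P. This was noticed after the values were seen and was not tested.

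**Figure D2:**
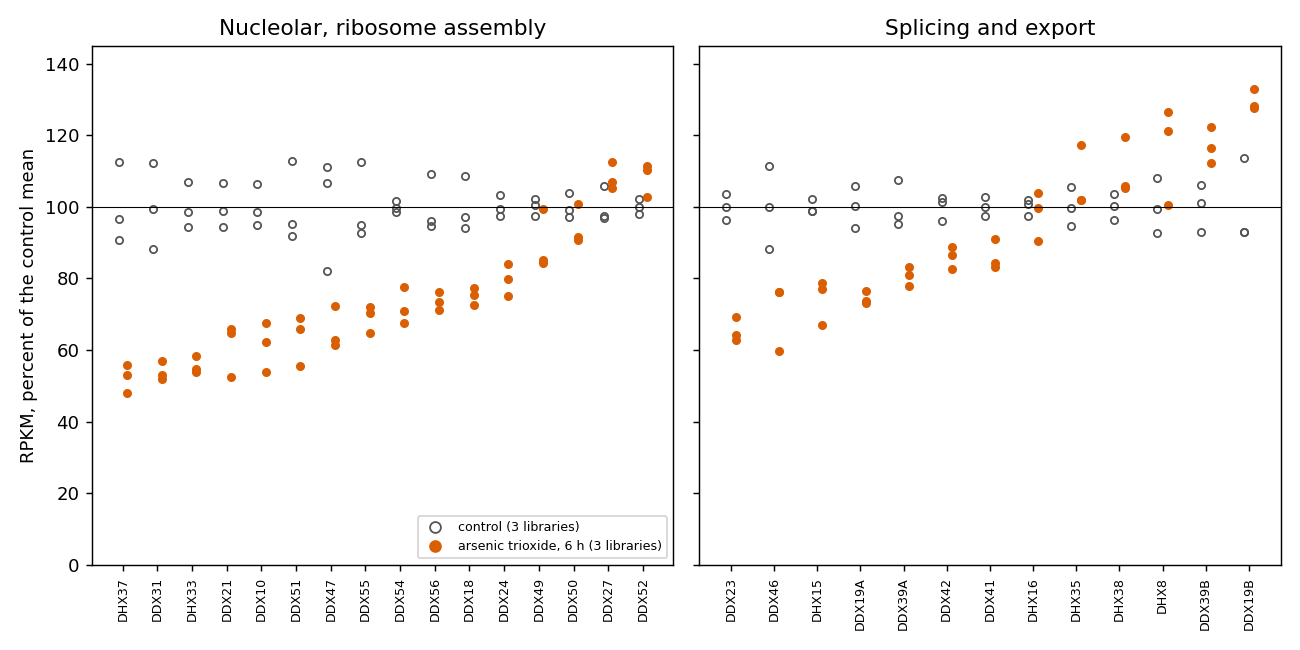
RPKM of each library as percent of the gene's control mean for the 16 nucleolar and 13 splicing and export helicases, with control libraries as open circles and arsenic trioxide libraries as filled circles, 3 each. DHX37 sits at 52.1% on average and DDX19B at 129%. All treated libraries lie below all controls in 12 nucleolar and 7 splicing and export genes, and in 22.6% of all genes tested.

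The promoters of the nucleolar helicases were searched for the E-box CACGTG, which reads the same on both strands and is the site of MYC and related factors. RefSeq promoters of build GRCh38.p14, from 250 bases before the start to 50 after it, were found for 46 of the 52 members and 12 of the 16 nucleolar ones. The letters occurred in 3 of those 12 (25.0%), in 5 of the 34 matched members outside the nucleolar role (14.7%) and in 7.4% of 27305 promoters of the same length. The 3 are DDX31, DDX54 and DHX37, and the 5 are DHX34, which fell, and the uncalled DHX35, DDX5, DHX32 and DHX40. The difference between these shares was not tested. The stretches below show the match in capitals with its flanks for the nucleolar DDX31 and DDX54 and, for contrast, for the match nearest the start in the splicing member DHX35, which holds 2 and was not called. In DHX37 the match lies after the start and is not shown. They lie at chr9:132669984-132670029, chr12:113185510-113185563 (both minus strand) and chr20:38962188-38962241 (plus strand), before the RefSeq start.
DDX31: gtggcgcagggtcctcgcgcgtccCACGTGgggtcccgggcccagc
DDX54: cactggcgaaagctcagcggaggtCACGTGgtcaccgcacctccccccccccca
DHX35: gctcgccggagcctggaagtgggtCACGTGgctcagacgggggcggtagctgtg
A match is a description of these letters, and binding was not measured.

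Among the splicing and export helicases DDX23 had the clearest fall. DDX23 helps the first small nuclear RNA leave the splice site as the spliceosome forms (chromosome 12, 48829764 to 48852842). It was at 30.3, 31.5 and 32.6 RPKM in control and at 21.8, 19.8 and 20.2 RPKM after arsenic trioxide. The treated libraries clustered near 65.5% of the control mean (log2 fold change -0.59 ± 0.06 SE, with an adjusted p from limma-trend of 0.00149). DHX15 takes spent spliceosomes apart and also serves ribosome assembly, so its place in this role is partial. It fell from 79.6, 79.6 and 82.2 RPKM to 63.3, 62.1 and 54.0 RPKM (-0.43 ± 0.07 SE, adjusted p = 0.00662). DDX23 and DHX15 are the 2 members of this role that kept their calls without each library in turn.

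DDX46, which prepares the branch point for its small nuclear RNA, had wider groups, at 27.0, 30.6 and 34.1 RPKM in control and 23.3, 23.3 and 18.3 RPKM after treatment. It fell by 0.48 on the log2 scale (limma-trend adjusted p = 0.0265), but not without control replicate 2 (0.0733), control replicate 3 (0.0781) or arsenic trioxide replicate 3 (0.052). DDX39A, which loads export factors on messenger RNA, was at 47.2, 41.8 and 42.8 RPKM in control and 36.6, 34.2 and 35.6 RPKM after treatment (-0.30, adjusted p = 0.0161, or 0.053 without arsenic trioxide replicate 2). DDX42, a partner of the branch point complex, was at 27.5, 26.1 and 27.8 RPKM in control and 23.5, 24.1 and 22.4 RPKM after treatment (-0.21, adjusted p = 0.036).
DDX41, a spliceosome member whose germline variants predispose to myeloid leukaemia, was at 29.1, 27.6 and 28.3 RPKM in control and 25.8, 23.6 and 23.9 RPKM after treatment (-0.21, limma-trend adjusted p = 0.0422). In each of these genes the groups were apart. The call of DDX42 was lost without any 1 of the 6 libraries (adjusted p = 0.0594 to 0.118), and that of DDX41 without any but arsenic trioxide replicate 1 (0.0845 to 0.115). With median-ratio or upper quartile factors both were lost (0.0635 to 0.0912). The count of 6 became 3 without control replicate 2, control replicate 3, arsenic trioxide replicate 2 or arsenic trioxide replicate 3.

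The helicases that drive the catalytic steps and the release of the spliced product were not called. DHX16 acts before the first step (log2 fold change -0.03, 95% confidence interval -0.19 to 0.13), DHX38 before the second (0.13, -0.04 to 0.30) and DHX8 at mRNA release (0.20, -0.04 to 0.44), while DHX35 is a less studied spliceosome protein (0.09, -0.12 to 0.29). The sign of DHX16 turned with upper quartile factors (0.01) and without arsenic trioxide replicate 2 (0.02). No member of this role was called higher with limma-trend, though 2 had an unadjusted p under 0.05 and 2 were called with limma-voom, DDX19B and DDX39B in both cases. DDX39B, the close relative of DDX39A in the same export complex, was at 29.8, 31.3 and 27.4 RPKM in control and 36.1, 34.4 and 33.1 RPKM after treatment (0.22, adjusted p = 0.0535). Other annotated genes cover 30.8% of its exon bases. The groups were apart, and the gene was called with upper quartile factors (0.0343) and with the filter at 1 CPM (0.0445).

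DDX19A and DDX19B are near copies that lie next to each other on chromosome 16 (70346829 to 70373383 and 70289663 to 70335283) and release messenger RNA at the nuclear pore. DDX19A was at 3.67, 3.44 and 3.87 RPKM in control and 2.80, 2.68 and 2.70 RPKM after arsenic trioxide (log2 fold change -0.32, limma-trend adjusted p = 0.0666). DDX19B was at 3.37, 4.12 and 3.37 RPKM in control and 4.81, 4.62 and 4.64 RPKM after treatment (0.30, adjusted p = 0.087). Neither passed, and each was apart between groups, in opposite directions. With limma-voom DDX19A was called lower (adjusted p = 0.0105) and DDX19B higher (0.0377). How reads were divided between such near copies is uncertain, and other annotated exons cover 26.9% and 19.7% of their exon bases.

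Ratios of related helicases within a library, for 6 pairs chosen after the values were seen, set these pairs side by side. The ratio of DDX19A to DDX19B was 1.09, 0.835 and 1.15 in control and 0.582, 0.579 and 0.583 after treatment. That of DDX39A to DDX39B went from 1.58, 1.33 and 1.56 to 1.02, 0.996 and 1.07. That of DDX21 to DDX50, its nucleolar relative and neighbour on chromosome 10, went from 7.34, 6.36 and 6.38 to 4.73, 4.36 and 3.85. In these 3 pairs the groups were apart (exact two-sided permutation p = 0.1 each, n = 3, the smallest this design allows, and 0.2 adjusted over the 6 pairs). The ratio of DDX5 to DDX17 was 1.17, 1.11 and 1.14 in control and 1.01, 1.12 and 1.13 after treatment, with overlap. The ratios of DDX60 to DDX60L and of DDX11 to DDX12P also overlapped.

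**Figure D3:**
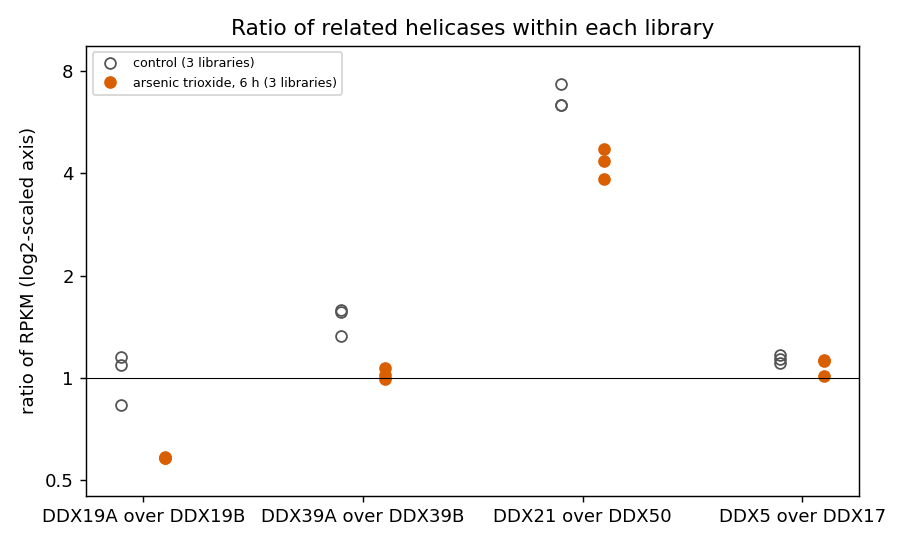
Ratio of RPKM of 4 pairs of related helicases within each library, on a log2-scaled axis, with control libraries open and arsenic trioxide libraries filled (3 each). The treated points lie below the control points for DDX19A over DDX19B, DDX39A over DDX39B and DDX21 over DDX50, and overlap for DDX5 over DDX17.

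Of the 6 members of transcription and nuclear RNA-protein complexes, DHX9 and DDX20 fell. DHX9, a broad nuclear helicase that resolves RNA and DNA hybrids, was second in level at 125, 127 and 129 RPKM in control and 104, 95.5 and 109 RPKM after treatment. The groups were apart (log2 fold change -0.30 ± 0.06 SE, with an adjusted p from limma-trend of 0.015, or 0.0507 without control replicate 2 and 0.0517 without control replicate 3). DDX20, part of the SMN complex that builds spliceosomal particles, went from 10.4, 10.2 and 9.87 RPKM to 7.64, 8.00 and 8.41 RPKM (-0.31, adjusted p = 0.0252). Its call held without arsenic trioxide replicate 3 and was lost without any other single library (0.0651 to 0.0783).
The abundant coregulators of transcription and splicing were close to their control levels. DDX17 was at 70.9, 70.4 and 67.6 RPKM in control and 71.9, 69.8 and 65.5 RPKM after treatment (log2 fold change -0.01, 95% confidence interval -0.14 to 0.12), with a sign that turned under upper quartile factors (0.03) and without arsenic trioxide replicate 3 (0.02). DDX5 (-0.08, -0.21 to 0.05), DDX1 (-0.09, -0.24 to 0.06), which belongs to the tRNA ligase complex, and DHX36 (-0.06, -0.23 to 0.12), which unwinds G-quadruplexes, were not called either. These intervals leave room for small changes.

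In translation and mRNA decay, DDX6 rose and DHX34 fell. DDX6, a repressor of translation that brings messenger RNAs to decapping (chromosome 11, 118747766 to 118791149), was at 25.1, 26.7 and 28.1 RPKM in control and 36.2, 37.4 and 38.4 RPKM after arsenic trioxide. Every treated library was above every control, at 1.40 times the control mean (log2 fold change 0.47 ± 0.06 SE, with an adjusted p from limma-trend of 0.00286). It kept its call in all 16 alternatives run and had the smallest p-value of the 3 members that rose. DHX34, which acts in nonsense-mediated decay, went from 28.6, 26.1 and 24.1 RPKM to 18.9, 17.9 and 18.9 RPKM (-0.48 ± 0.07 SE, adjusted p = 0.00534). Its groups were apart in the other direction. DDX3X (-0.10, 95% confidence interval -0.28 to 0.09) and DHX29 (-0.06, -0.27 to 0.14), both helpers of translation initiation, and DHX57 (0.18, -0.06 to 0.42) were not called.

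Of the 4 RNA-sensing members 2 passed the filter, and DDX58 rose. DDX58 encodes RIG-I, which recognises viral RNA ends in the cytoplasm (chromosome 9, 32455705 to 32526324). It was at 4.04, 4.67 and 5.39 RPKM in control and 7.48, 7.68 and 6.54 RPKM after treatment, apart in all libraries (log2 fold change 0.53 ± 0.12 SE, with an adjusted p from limma-trend of 0.0194). The call was lost without control replicate 2 (0.0552), arsenic trioxide replicate 1 (0.0638) or arsenic trioxide replicate 2 (0.0636). DDX60L was at 1.97, 2.43 and 2.03 RPKM in control and 2.62, 2.93 and 3.08 RPKM after treatment. Its groups were apart but it was not called (0.30, limma-trend adjusted p = 0.12), though limma-voom called it higher. DDX60 (0.543 ± 0.121 and 0.663 ± 0.0173 RPKM) and DHX58, the regulator LGP2 (0.468 ± 0.216 and 0.833 ± 0.239 RPKM, SD, n = 3 each), were below the filter and overlapped between groups. Of 22 genes chosen as interferon-stimulated, 17 were listed and 8 tested. With limma-trend 0 were called, with 1 at an unadjusted p under 0.05 and 1 called with limma-voom, and their median was 0.18. The other listed genes were below the filter and could not be called. Among them IFIT5 was at 0.13 ± 0.0441 RPKM in control and 0.893 ± 0.317 RPKM after treatment, and OASL at 0.0717 ± 0.0283 and 0.252 ± 0.0516 RPKM. The means of IFIT1 (1.16 and 0.789 RPKM) and MX1 (0.0391 and 0.0371 RPKM) went the other way.

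The promoters of DDX60 and DDX60L hold the core of the interferon-stimulated response element, the site of the factors that interferon activates. The letters GAAA, any 2 bases and GAAA, searched on both strands, were found in 2 of the 3 sensor promoters matched, in 3 of the 46 member promoters and in 3.6% of all 27305 promoters. The window of DDX58 did not hold them. The capitals mark the match nearest the start, at chr4:168318772-168318829 and chr4:168480509-168480566 (GRCh38.p14, minus strand, RefSeq).
DDX60: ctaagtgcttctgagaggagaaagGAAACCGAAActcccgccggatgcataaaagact
DDX60L: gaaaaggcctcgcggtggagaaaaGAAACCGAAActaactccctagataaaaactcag
They are shown because these sensor promoters held a match before the start. Both genes were low, and DDX60L was not called with limma-trend while DDX60 was not tested.

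Both mitochondrial members fell. DDX28, needed for the large subunit of the mitochondrial ribosome, went from 11.5, 12.7 and 11.6 RPKM to 7.75, 6.35 and 7.47 RPKM (log2 fold change -0.66 ± 0.09 SE, with an adjusted p from limma-trend of 0.00411). It is a short gene whose exons share 22.5% of their bases with DUS2, and its groups were well apart. DHX30, a protein of mitochondrial RNA granules, went from 27.5, 26.1 and 25.0 RPKM to 22.5, 19.0 and 20.9 RPKM (-0.32 ± 0.08 SE, adjusted p = 0.0242). Its call was lost without control replicate 1 (0.0711), control replicate 2 (0.0676), arsenic trioxide replicate 2 (0.0616) or arsenic trioxide replicate 3 (0.0551).

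The remaining members were mixed. DDX59, whose loss causes a ciliopathy, rose from 4.87, 5.40 and 6.08 RPKM to 6.94, 7.78 and 7.86 RPKM (log2 fold change 0.41 ± 0.11 SE, with an adjusted p from limma-trend of 0.0311). Its groups were apart, but the call held without control replicate 3 and was lost without any other single library (0.0522 to 0.0889). DHX40 (0.22, adjusted p = 0.0583) and DHX32 (0.30, 0.185) were not called, nor were DDX11, a DNA helicase of sister chromatid cohesion (-0.26, 0.0623), and its pseudogene copy DDX12P (-0.15, 0.131), which can share reads with it. Of 4 germ cell helicases DDX43 was listed and not called (-0.36, adjusted p = 0.19), and the others are not analysed here.

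By the authors' deposited table, 28 of the 50 tested members had an adjusted p below 0.05, and 23 of them were called here. DDX41 and DDX42 were called here and not in the authors' deposited table, and DDX47, DDX19A, DDX19B, DDX60L and DDX11 the other way round.

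Genes that work beside these helicases were counted for comparison, and are read beside the 12.0% higher and 13.4% lower of all genes tested. Of 30 tested nucleolar assembly factors that are not helicases 25 fell and 0 rose (0 at an unadjusted p under 0.05, and 0 with limma-voom), with a median log2 fold change of -0.51. The polymerase I subunit POLR1B (-0.92), WDR3 (-0.91) and UTP15 (-0.85) had the smallest p-values. In 24 core splicing factors 3 fell, PRPF4 (-0.56), SF3B3 (-0.29) and U2AF2 (-0.30), and 1 rose, with a median of -0.12. Of 17 partners in export 2 fell and 2 rose, with a median of -0.03. In both lists the share that fell was near that of all genes. NXT1, a subunit of the export receptor, fell from 27.2 ± 1.05 to 16.0 ± 1.12 RPKM (SD, n = 3 each), while FYTTD1 (0.63) and ZC3H11A (0.40), an adaptor and an export-linked protein, rose.

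The G-patch proteins, several of which activate DEAH helicases, moved both ways. Of 21 tested 5 rose and 3 fell, beside 12.0% higher and 13.4% lower of all genes tested, with a median of -0.06. RBM5, a splicing regulator and partner of DHX15, rose from 15.2 ± 0.76 to 22.8 ± 0.447 RPKM (SD, n = 3 each). GPATCH3 rose (log2 fold change 0.59), and CHERP fell (-0.56). Helicases of related families that carry other names were called in 3 of 15 cases, beside 25.4% of all genes tested, with a median of -0.12. HELZ rose (0.37). The translation helicase EIF4A1 (-0.42, limma-trend adjusted p = 0.0417) and SKIV2L, which feeds RNA to the exosome (-0.33, 0.0471), fell, both close to the threshold.

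Of the genes listed as markers of other cell types, EPCAM and CD3D were not called. EPCAM was at 5.39 ± 0.646 and 5.65 ± 1.11 RPKM in control and treated libraries (SD, n = 3 each). CD3D was at 3.54 ± 0.279 and 3.48 ± 0.643 RPKM (SD, n = 3 each). PECAM1 was not called either, at 3.57 to 4.72 RPKM in control and 3.70 to 4.76 RPKM in treated libraries. Of the 8 tested promyelocytic markers AZU1 fell (log2 fold change -0.98) and 7 were not called, with a median of -0.37. The part of such shifts in the helicase values was not tested.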

How the data were processed

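RNA of 3 control and 3 arsenic trioxide libraries was depleted of ribosomal RNA, per the labels' protocols. HISAT2 2.1.0 and HTSeq, with DESeq2 and build hg38, appear without parameters in the submitters' processing notes. Duplicate removal is marked in the file headers. The deposited table gives RPKM per gene and the authors' mean normalized signal, log2 fold change, test score and p-value. Of these the mean served to settle exon lengths, and the others were quoted, not tested.

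RPKM was turned back into whole reads with exon lengths of GENCODE 29 (within 0.01 reads in 93.0% of genes, 100.0% with the deposited mean). Log2 of RPKM + 1 was fitted with limma 3.58.1 (R 4.3.3) on treatment alone over 16803 genes, and 7055 with a mean under 1 RPKM were set aside. The library kit does not mark strand, so reads of overlapping exons cannot be told apart. Chi-square per degree of freedom between replicates was 5.48 to 13.5, above sampling noise for each pair.

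Members, roles and lists were chosen with earlier results of these data known. Values in every library are given for up to 6 called members of the nucleolar role and of the splicing and export role, and up to 3 of each other role, by smallest p-value, for called members against their role's median, and for the 3 largest changes each way. Up to 3 called genes per list are named. A result on 1 cell type marker is not reported here.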

Additional observations from a re-analysis of the deposited data

How the results depend on the processing

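The 16 alternatives were other scaling factors, filters, pseudocounts, limma-voom on recovered reads, the replicate block, each library left out, both libraries that stood apart left out, and overlapping genes left out. Of the 25 called members 15 kept their calls under all of them that tested the gene, and 7 others were called under at least 1. Leaving out 1 library gave 16 to 20 lower and 1 to 3 higher members, 10 to 11 lower nucleolar and 3 to 5 lower splicing and export members, and 1427 to 1908 lower and 1331 to 1525 higher genes in all. Without control replicate 1 and arsenic trioxide replicate 3 together, 1484 genes were lower and 1200 higher, and 3 splicing and export members were lower. Without overlapping genes 20 members were tested, of which 13 fell and 4 rose. In that setting 5 of 6 nucleolar members fell, and so did 4 of 4 splicing and export members, with a median of -0.31. In all, 1076 genes were then lower and 796 higher, fewer because 5394 genes were tested. Higher members numbered 5 with upper quartile factors and 7 with limma-voom, which called 2504 genes higher and 2739 lower in all. Higher splicing and export members numbered 1 with upper quartile factors, 1 with the filter at 1 CPM and 2 with limma-voom. The labels tie same-numbered libraries by number alone, and whether they were paired is not stated. Their deviations from the group means correlated at -0.085, 0.148 and -0.083, which with 3 libraries per group cannot decide it. With the replicate block 1460 genes were higher and 1616 lower, 2 members were higher and 18 lower, 3 splicing and export members were lower, and 11 nucleolar members were lower as before. The sign turned for uncalled DDX17 (0.03 with upper quartile factors, -0.04 to 0.02 without 1 library, 0.04 without both libraries) and DHX16 (0.01 with upper quartile factors, -0.07 to 0.02 without 1 library). The cause was not tested. DHX58, DDX60 and DDX43 had the fewest reads, which limits their precision.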
